A study of Mus musculus with 13 samples.

Results

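Cytoglobin (Cygb) and 5 genes beside it on mouse chromosome 11, BC018473, St6galnac1, St6galnac2, Mxra7 and Jmjd6, were followed in RNA from purified kidney glomeruli. They are 6 of the 46958 genes in the deposited count table and were taken by name. Cygb and BC018473 had been chosen because their counts were higher in light chain deposition disease (LCDD) mice, so the LCDD values of the members are a description and carry no test. The study compared 3 genotypes at 6 months of age: kFRA (LCDD) with 4 libraries, DH-LMP2A with 4 and wild type (WT) with 5. LCDD is a disorder in which a monoclonal immunoglobulin light chain deposits in the kidney. The labels name kFRA and DH-LMP2A without describing either allele, and do not say whether the LCDD mice also carry DH-LMP2A. All groups have the same mixed background, C57/BL6x129/SVxBALB/c, and the strain origin of this chromosome 11 region in each library is not given. A library is a pool of 3 mice, except WT replicates 3 to 5, which came from 1 mouse each.

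Cytoglobin is a haem protein of the globin family that binds oxygen, can turn over nitric oxide and is best known from pericytes, fibroblasts and related stromal cells. St6galnac1 and St6galnac2 are Golgi enzymes that add sialic acid to mucin-type O-glycans, while Jmjd6 is a nuclear oxygenase of the JmjC family. Mxra7 is named as a matrix remodelling associated gene, and BC018473 is a long RNA that the GENCODE annotation classes as antisense.

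The genes lie in the order Cygb, St6galnac2, BC018473, St6galnac1, Mxra7 and Jmjd6 on the mm10 (GRCm38) build, and only BC018473 is on the plus strand. Cygb spans chr11:116645595-116654313 with 4 exons, St6galnac2 chr11:116675303-116694868 with 9 and BC018473 chr11:116752167-116759373 with 5. These are the exons listed for each gene in the count table, not those of 1 transcript. St6galnac1 spans chr11:116765025-116775507, Mxra7 chr11:116803062-116828046 and Jmjd6 chr11:116837432-116843449. Short stretches of 3 of the transcripts with more counts in LCDD are given here, from GENCODE M21 transcripts on GRCm38, to show part of their annotated sequence. Where the counted reads lie in these transcripts was not examined. For both sialyltransferase genes the first 90 coding bases are shown with the start codon in capitals. For BC018473 a transcript of 4 exons is used, with the last 60 bases of its exon 1 in lower case and the first 60 of exon 2 in capitals.
St6galnac2: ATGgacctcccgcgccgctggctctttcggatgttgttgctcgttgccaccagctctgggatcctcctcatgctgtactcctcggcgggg
BC018473: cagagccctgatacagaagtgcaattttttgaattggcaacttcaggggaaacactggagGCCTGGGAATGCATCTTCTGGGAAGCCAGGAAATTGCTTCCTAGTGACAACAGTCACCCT
St6galnac1: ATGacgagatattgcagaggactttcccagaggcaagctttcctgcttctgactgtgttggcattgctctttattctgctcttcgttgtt
The coding sequences are 570 bases long for Cygb, 1119 for St6galnac2 and 1578 for St6galnac1. St6galnac1 and St6galnac2 are identical at 66.9% of the 1110 bases that align, and they share no stretch as long as a 75-base read.

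Total counts were 18604929 to 26544422 in LCDD libraries, 17274426 to 26143996 in DH-LMP2A and 16687509 to 30587890 in WT. Levels are given as CPM, the library's counts scaled to a common total with TMM factors. Markers of podocytes, a cell type found only in glomeruli, were present in every library, with summed levels of 7042 to 30650 CPM in LCDD, 16060 to 31220 in DH-LMP2A and 14530 to 32050 in WT. The sample titles carry a 6-digit code shared by libraries of different genotypes. It is numbered here 1 to 4 in ascending order, and its meaning is not stated. Proximal tubule markers also varied, from 526 to 1671 CPM in LCDD, 446 to 3411 in DH-LMP2A and 100 to 2366 in WT, and were highest under codes 1 and 2. WT replicate 2 was the only WT library with more than 1 count of the Y-linked gene Ddx3y, at 197, whereas all LCDD and DH-LMP2A libraries had at least 208. Counts of Xist, an RNA of female cells, ran from 9 (replicate 3) to 25354 (replicate 4) in LCDD. They were 1026 to 17549 in DH-LMP2A and 9018 to 41308 in WT. The mix of sexes thus differed between libraries and with genotype, and in the WT comparisons the 2 cannot be fully told apart. In such bulk samples, fewer cells of a type and less RNA per cell cannot be told apart.

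Cygb, the oxygen-binding globin, was high in every LCDD library. It measured 95.04, 113, 139 and 83.7 CPM in LCDD replicates 1 to 4. DH-LMP2A replicates 1 to 4 had 16.3, 17.6, 12.4 and 10.7 CPM, and WT replicates 1 to 5 had 4.37, 5.68, 6.41, 8.23 and 9.86 CPM. The lowest LCDD library was thus far above the highest library of the other genotypes, and the DH-LMP2A and WT values did not overlap either. The LCDD mean was 108 ± 24.1 CPM (SD, n = 4), beside 14.3 ± 3.22 (SD, n = 4) for DH-LMP2A and 6.91 ± 2.16 (SD, n = 5) for WT. The log2 fold change of Cygb in LCDD was 2.91 ± 0.26 (SE) against DH-LMP2A, which is 7.53-fold, and 3.96 ± 0.25 against WT, which is 15.6-fold. Within the codes the ratio of LCDD to DH-LMP2A was 5.84, 6.40, 11.2 and 7.79.

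St6galnac2, the sialyltransferase next along the chromosome, was also highest in LCDD. Its level was 99.5, 77.0, 150.5 and 80.7 CPM in LCDD replicates 1 to 4. In DH-LMP2A it was 37.0, 28.3, 18.3 and 17.2 CPM, and in WT 33.4, 9.64, 11.01, 11.7 and 14.5 CPM. Every LCDD library was above all 9 others, while DH-LMP2A and WT overlapped. Means were 102 ± 33.8 CPM (SD, n = 4), 25.2 ± 9.34 (SD, n = 4) and 16.0 ± 9.84 (SD, n = 5). The log2 fold change in LCDD was 2.01 ± 0.40 (SE) against DH-LMP2A and 2.66 ± 0.38 against WT. The ratio of LCDD to DH-LMP2A was 2.69 and 2.72 under codes 1 and 2 and 8.21 and 4.71 under codes 3 and 4. The highest DH-LMP2A and WT values were those of codes 1 and 2, where the proximal tubule markers were highest as well (3411 and 3002 CPM in DH-LMP2A and 2366 in WT). With the tubule level as a covariate, the log2 fold change of St6galnac2 was 2.30 against DH-LMP2A and 2.36 against WT.

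BC018473, the long antisense RNA, was detected almost only in LCDD. Its raw counts were 325, 235, 247 and 246 in LCDD replicates 1 to 4. They were 1, 2, 0 and 0 in DH-LMP2A and 3, 1, 0, 0 and 2 in WT, where 3 counts are taken as the floor of detection. LCDD libraries averaged 11.1 ± 2.14 CPM (SD, n = 4), and the other 9 lay at or under the floor. Over the summed counts, the LCDD level was 330.5 times that of DH-LMP2A, with an exact 95% counting interval of 113 to 1605. It was 219 times that of WT, with an interval of 100.4 to 599. These intervals cover counting error only.

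St6galnac1, the second sialyltransferase, had 2, 5, 1 and 1 counts in LCDD and 0 in all DH-LMP2A and WT libraries. It did not pass the filter on low counts and was not tested. The 3-count floor over the summed libraries corresponds to 0.0329 CPM in DH-LMP2A and 0.0248 CPM in WT. St6galnac1 shares 628 of its 2318 distinct 75-base stretches (27.1%) with the pseudogene Gm11735, so these few reads cannot be assigned with certainty. Gm11735 itself had 0, 2, 5 and 2 counts in LCDD and 0 elsewhere.

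Mxra7 and Jmjd6, the members furthest from Cygb, had overlapping levels in LCDD and the other genotypes. Mxra7 measured 70.6, 71.5, 48.0 and 54.7 CPM in LCDD, 52.9, 49.2, 53.7 and 47.9 in DH-LMP2A and 66.4, 74.6, 55.8, 57.0 and 60.9 in WT. Its LCDD values overlapped both other groups, with log2 fold changes of 0.27 ± 0.14 (SE) against DH-LMP2A and -0.04 ± 0.13 against WT. Jmjd6 measured 54.8, 42.3, 64.3 and 53.3 CPM in LCDD, 58.6, 50.5, 63.9 and 56.4 in DH-LMP2A and 43.0, 52.1, 38.6, 33.5 and 34.2 in WT. Its LCDD values lay within the DH-LMP2A range apart from the highest and the lowest library, and overlapped WT. The log2 fold changes of Jmjd6 were -0.10 ± 0.16 (SE) against DH-LMP2A and 0.41 ± 0.15 against WT, and the latter fell to 0.14 without the single-mouse WT libraries.

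**Figure D1:**
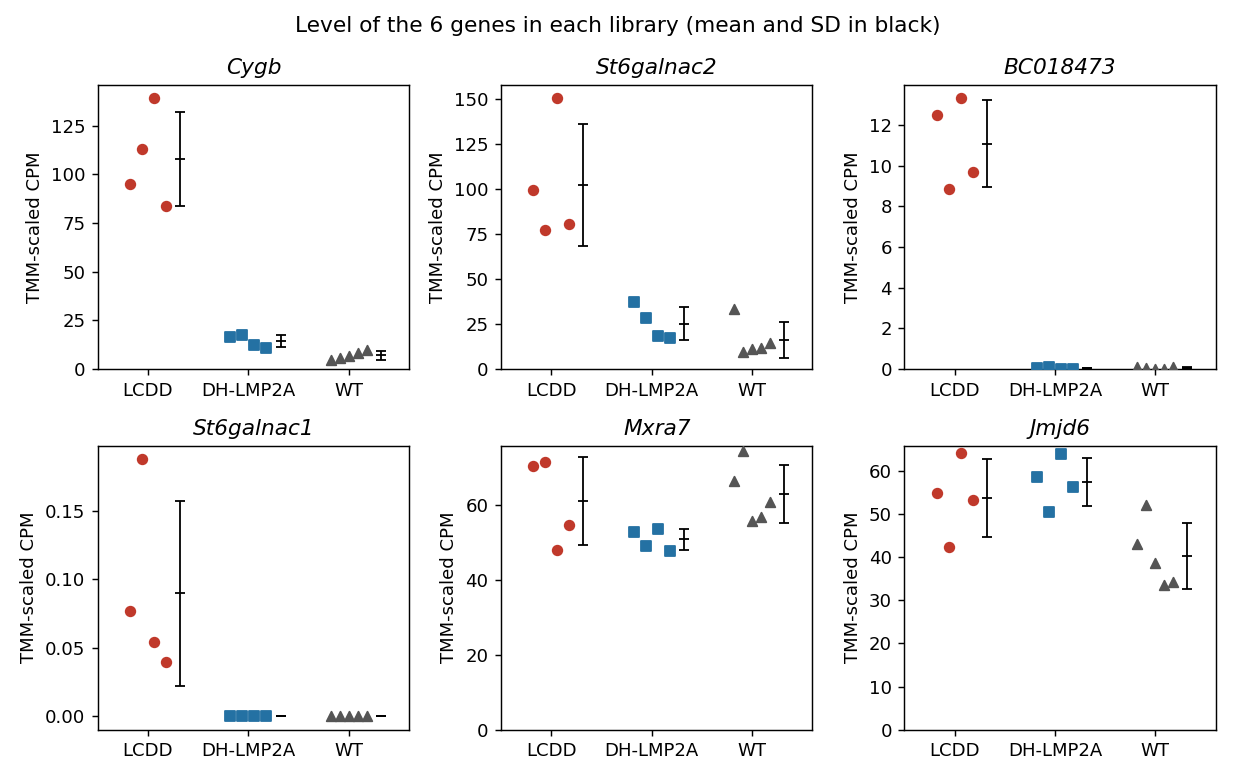
TMM-scaled CPM (vertical axes, each panel with its own range) of the 6 genes in 4 LCDD, 4 DH-LMP2A and 5 WT libraries, one point per library, with the mean and SD in black. In the panels of Cygb, St6galnac2 and BC018473 all LCDD points lie above all others, as in that of St6galnac1, where they rest on a few counts. In those of Mxra7 and Jmjd6 LCDD overlaps both other groups, while the DH-LMP2A points of Mxra7 lie below all its WT points.

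Among the members tested, 3 of 5 (Cygb, St6galnac2 and BC018473) had every LCDD library above all other libraries, as did 1.56% of the 16738 genes tested. A call below means that a gene's adjusted p from edgeR's quasi-likelihood test, with Benjamini-Hochberg adjustment over the whole tested table, is under 0.05. By that rule the same 3 of 5 members were called higher in LCDD in both comparisons, where 1.3% of all genes were called higher against DH-LMP2A and 1.3% against WT. Since the members were chosen on these values, nothing is read from those counts.

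DH-LMP2A against WT was not used to choose the members, although its libraries served as the comparison groups of that choice. Of the 5 members tested, 0 were called in it by edgeR, where 0.275% of all genes were called higher and 0.352% lower in DH-LMP2A. DESeq2 called 1 (Cygb), among 458 genes that it called in this comparison. At an unadjusted edgeR p under 0.05 there were 3 of the 5. The share of all genes at that p is not given here, so nothing is read from the 3. The level of Cygb in DH-LMP2A was 2.07 times that in WT (log2 1.05 ± 0.23, SE), with an edgeR p of 0.000636 and an adjusted p of 0.0718. Every DH-LMP2A library was above every WT library, a separation that 2.64% of all genes showed, and the gap was narrow (10.7 against 9.86 CPM). DESeq2 gave an adjusted p of 0.00341 for the same difference. Over all alternatives the adjusted p of Cygb ran from 0.00341 to 0.230, and its log2 fold change from 0.90 to 1.497.

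The other members gave smaller differences between DH-LMP2A and WT. St6galnac2 was at 0.65 ± 0.37 (log2, SE; edgeR adjusted p = 0.502), and at 0.06 with the tubule level as a covariate. Jmjd6 was at 0.51 ± 0.15 (log2, SE; edgeR adjusted p = 0.169), with an unadjusted 95% interval of 0.22 to 0.80, and at 0.25 without the single-mouse WT libraries. Mxra7 was lower in every DH-LMP2A library than in every WT library, as were 2.33% of all genes tested, at -0.31 ± 0.13 (log2, SE; edgeR adjusted p = 0.358), with an unadjusted interval of -0.56 to -0.05. BC018473 was at or under the floor in both genotypes, so no fold is given.

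Compared per kilobase of exon, Cygb was the most abundant member in LCDD at 46.2 ± 10.4 CPM per kb (SD, n = 4), above Mxra7 at 25.6 ± 4.89. St6galnac2 (14.4 ± 4.77) and Jmjd6 (11.4 ± 1.91) came next and did not differ beyond their spread, followed by BC018473 at 2.02 ± 0.39. In DH-LMP2A the order was Mxra7 at 21.3 ± 1.18, Jmjd6 at 12.2 ± 1.18, Cygb at 6.12 ± 1.38 and St6galnac2 at 3.56 ± 1.32 CPM per kb. WT had the same order, with Mxra7 at 26.3 ± 3.23, Jmjd6 at 8.57 ± 1.63, Cygb at 2.96 ± 0.93 and St6galnac2 at 2.26 ± 1.39, the last pair within their spread. The table's exon length of St6galnac2, 7090 bases, is longer than its printed transcript of 3643, and the order depends on which is used. Per kb of that transcript St6galnac2 would be at 27.97 ± 9.29 CPM in LCDD, 6.92 ± 2.56 in DH-LMP2A and 4.40 ± 2.70 in WT. Cygb would then still lead in LCDD but stand below St6galnac2 in DH-LMP2A and WT, within their spread.

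The rows between and around the members were then examined. From the start of Cygb to the end of St6galnac1 the region covers 129913 bases. Besides the members it holds 3 other genes with counts, Gm11744, 1810032O08Rik and Gm11735. All of them had a higher mean in LCDD than in either other genotype. For 1810032O08Rik, though, LCDD overlapped both groups, and Gm11735 had only 9 counts in LCDD and was not tested. The ends of the region were set at members with more counts in LCDD, so this is a description. Gm11744, which GENCODE M21 names Prcd at the same span, is a protein-coding gene on the opposite strand that overlaps Cygb by 780 bases. It had 35, 39, 58 and 48 counts in LCDD, 4, 9, 6 and 4 in DH-LMP2A and 3, 3, 3, 5 and 3 in WT, with no overlap between LCDD and the rest. Gm11744 was higher in LCDD by 2.94 ± 0.40 (log2, SE; edgeR adjusted p = 0.00275) against DH-LMP2A and by 3.69 ± 0.39 (edgeR adjusted p = 0.000325) against WT. It was called in both under every alternative that gave a value. However, its counts reached the filter's minimum of 10 only in LCDD libraries. It also overlaps Cygb, which was chosen for its LCDD values, so these calls are given as a description.

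Counts of Gm11744 were 1.30 to 2.26% of those of Cygb in LCDD libraries, 0.919 to 2.75% in DH-LMP2A and 1.24 to 3.26% in WT. The share therefore overlapped in all genotypes while both genes differed. Cygb shares 130 of its 2257 distinct 75-base stretches with that gene. The strand setting of the counting is not given in the sources used here, so reads within that overlap cannot be told apart by gene, while reads outside it can.

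1810032O08Rik, a host of small nucleolar RNAs that overlaps St6galnac2 by 497 bases on the opposite strand, differed less. It averaged 10.1 ± 3.36 CPM (SD, n = 4) for LCDD, 6.22 ± 0.92 (SD, n = 4) for DH-LMP2A and 4.72 ± 1.48 (SD, n = 5) for WT. LCDD overlapped both groups, and the difference was not called: 0.70 ± 0.28 (log2, SE; edgeR adjusted p = 0.288) against DH-LMP2A and 1.09 ± 0.26 (edgeR adjusted p = 0.0578) against WT. Against WT 5 of 18 alternatives called it, with an adjusted p down to 0.00536: DESeq2, the title code as block, and edgeR without LCDD replicate 2, WT replicate 1 or WT replicate 2. Its counts were 8.16 to 11.2% of those of St6galnac2 in LCDD, against 19.2 to 36.5% in DH-LMP2A and 17.8 to 68.6% in WT. That share was lower in every LCDD library than in any other. Its denominator, St6galnac2, was itself higher in every LCDD library, so the separation follows in part from that and is a description.

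The nearest tested genes on either side of the region were not called in LCDD. Rhbdf2, a rhomboid family gene that ends 18575 bases before Cygb begins, was at -0.12 and 0.18 (log2) in LCDD against DH-LMP2A and WT. Mxra7 begins 27554 bases past St6galnac1, and its values and those of Jmjd6 are given above. Of 60 other genes in a wider window, from Itgb4 to Gm11733, 34 were tested. Gm11744 was the 1 called higher against DH-LMP2A and the 1 called higher against WT by edgeR, while DESeq2 also called 1810032O08Rik higher and Gm11730 lower against WT. By edgeR 0 were called lower in either, and 0 were called between DH-LMP2A and WT (edgeR; 5 at an unadjusted p under 0.05, and 1 called by DESeq2, Trim65). When the title code was added to the fit as a block, Trim47, further upstream, was called too in LCDD against DH-LMP2A (135 against 101 CPM, edgeR adjusted p = 0.0342). The median log2 fold change of those 34 genes was -0.11, 0.11 and 0.14 in the 3 comparisons in that order, beside -0.006, 0.010 and 0.0009 for all genes tested.

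**Figure D2:**
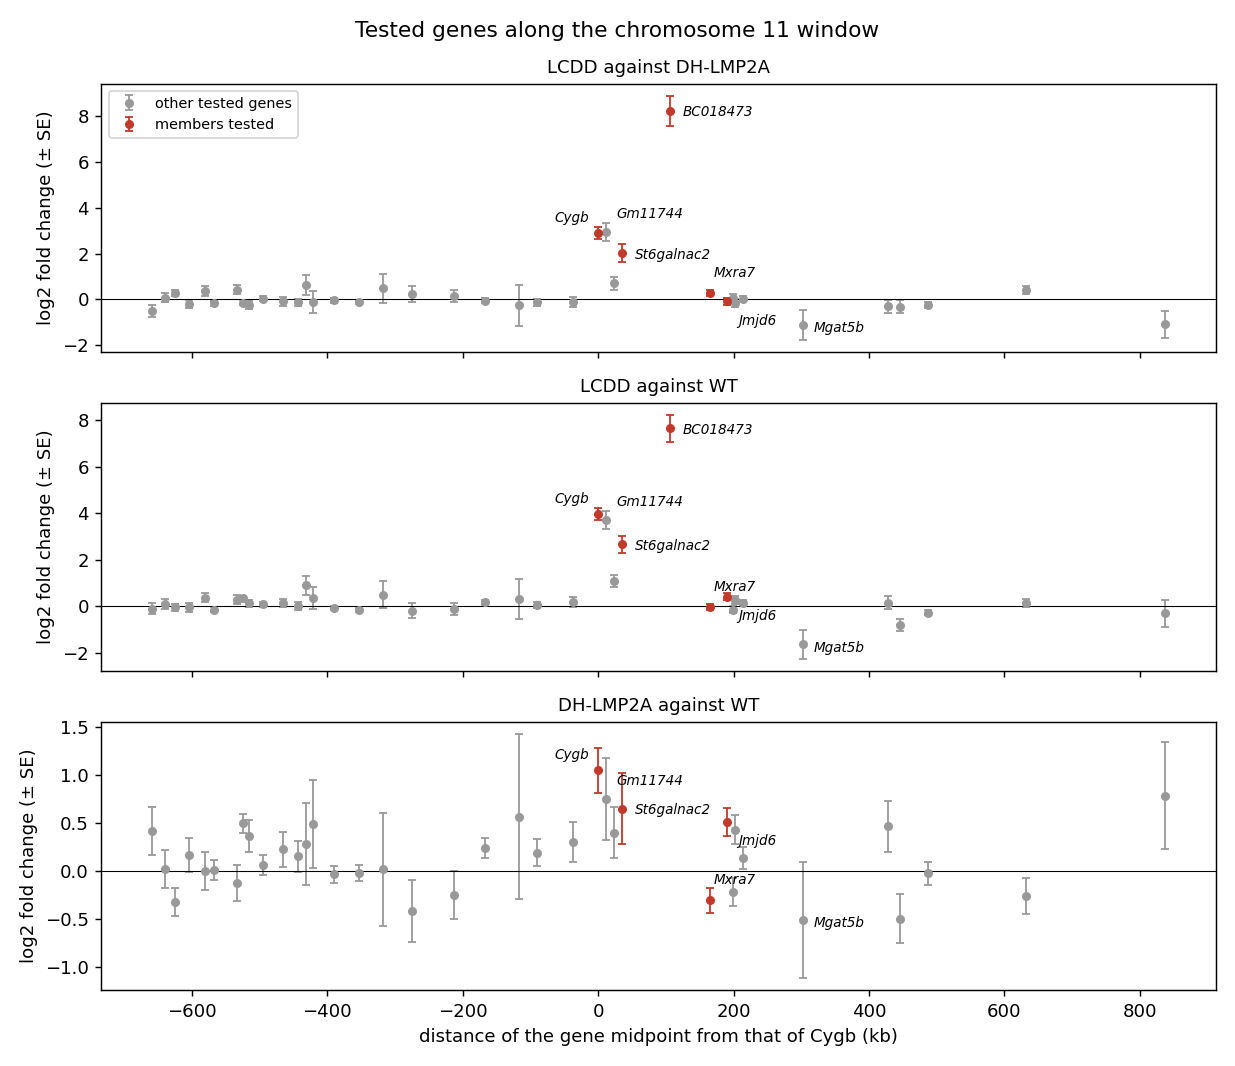
Log2 fold change with its SE (vertical axes, narrower in the lowest panel) for each tested gene of the window, by distance in kb of its midpoint from that of Cygb, in the 3 comparisons. Against both other genotypes, Cygb, Gm11744, St6galnac2 and BC018473 stand above the flanking genes, with BC018473 at 8.24 and 7.66; values of BC018473 depend on the prior count because its denominators are near 0, and it is absent from the lowest panel.

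Genes of the pathways to which the members belong were taken from fixed lists. The share of genes called lower in LCDD was 0.693% against DH-LMP2A and 0.544% against WT. Of all 16738 genes tested, 2193 had an unadjusted edgeR p under 0.05 in LCDD against DH-LMP2A. The matching numbers for LCDD against WT and DH-LMP2A against WT are not given here, so counts at that p in them are a description. DESeq2 called 812 genes there and 726 in LCDD against WT. The title code was also added as a block to the fit on all 13 libraries, which is called the pairing below. With it, 3.24% of genes were called higher and 2.86% lower in LCDD than in DH-LMP2A. Of the other globins and haem carriers, 0 of 6 tested were called in any comparison by edgeR or DESeq2, with 0 at an unadjusted p under 0.05. The median log2 fold change of that list was -0.74 against DH-LMP2A and -0.53 against WT. Neuroglobin (Ngb), the globin of nerve cells, was at 12.04 CPM in LCDD and 23.5 in DH-LMP2A, a log2 difference of -0.97 ± 0.47 (SE; edgeR adjusted p = 0.407, and 0.00834 with the pairing). The rest were the haemoglobin chains and Alas2 of red cells, whose summed levels overlapped (306 to 1037 CPM in LCDD and 442 to 1035 in DH-LMP2A).

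Nitric oxide is a substrate of cytoglobin, and 0 of 17 genes of nitric oxide signalling and globin reduction were called in either LCDD comparison (edgeR; 3 at an unadjusted p under 0.05 in each, and DESeq2 called 1, Gucy1b3, against WT). With the pairing, 2 were called higher in LCDD than in DH-LMP2A. These were Gucy1b3, a subunit of the nitric oxide receptor guanylate cyclase (191 against 131 CPM; edgeR adjusted p = 0.137, and 0.0266 with the pairing), and Pde5a, which degrades cyclic GMP (124 against 82.4 CPM; edgeR adjusted p = 0.219, and 0.0372). Of 23 antioxidant enzymes 0 were called (edgeR; 1 at an unadjusted p under 0.05 against DH-LMP2A and 2 against WT, where DESeq2 called 1, Prdx3, lower). Sod3, the extracellular superoxide dismutase, was called lower only with the pairing (38.2 against 59.1 CPM; edgeR adjusted p = 0.0336). The medians of these lists were 0.19 and -0.06 (log2) against DH-LMP2A.

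Of 15 other sialyltransferases tested, 0 were called in either LCDD comparison (edgeR; 3 at an unadjusted p under 0.05 against DH-LMP2A and 0 against WT, and DESeq2 called 1, St6gal2, lower against DH-LMP2A), with medians of -0.15 and -0.25 (log2) in LCDD against DH-LMP2A and WT. St6gal1, which sialylates N-glycans, was lower with the pairing (150 against 272 CPM; edgeR adjusted p = 0.0123). Among 23 genes of sialic acid supply and O-glycan synthesis, 1 was called higher against DH-LMP2A and 0 against WT (edgeR; 1 at an unadjusted p under 0.05 in each, with the same counts of calls by DESeq2). B3gnt3, which extends core O-glycans, averaged 31.5 ± 14.5 CPM (SD, n = 4) for LCDD, 7.98 ± 2.72 (SD, n = 4) for DH-LMP2A and 25.4 ± 10.9 (SD, n = 5) for WT. Against DH-LMP2A its log2 fold change was 1.98 ± 0.40 (SE; edgeR adjusted p = 0.0251). The call was lost without LCDD replicate 1 or 2 or DH-LMP2A replicate 2 or 3, with an adjusted p of up to 0.106. With the pairing Galnt7, which starts or extends O-glycan chains, was called too (24.0 against 16.0 CPM; edgeR adjusted p = 0.0364). The list's medians were -0.02 and 0.07 (log2).

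The JmjC relatives of Jmjd6 gave 0 calls among 26 genes in either LCDD comparison (edgeR; 2 at an unadjusted p under 0.05 against DH-LMP2A and 3 against WT, where DESeq2 called 1, Hspbap1, higher), with medians of -0.06 and -0.02 (log2). The histone demethylase Kdm4a was called lower only with the pairing (70.2 against 92.7 CPM; edgeR adjusted p = 0.0379). Of 16 hypoxia response genes, 1 was called lower in each LCDD comparison. Egln3, a prolyl hydroxylase that marks hypoxia-inducible factor for decay, averaged 6.31 ± 2.04 CPM (SD, n = 4) for LCDD, 22.0 ± 9.14 (SD, n = 4) for DH-LMP2A and 19.6 ± 8.08 (SD, n = 5) for WT. Its log2 fold changes were -1.81 ± 0.39 (SE; edgeR adjusted p = 0.0356) and -1.63 ± 0.38 (edgeR adjusted p = 0.0472). Egln3 lost its call in 9 of 17 and 12 of 18 alternatives, with an adjusted p of up to 0.114 and 0.146. Against DH-LMP2A the call was lost without any 1 of LCDD replicates 1, 2 and 4 and DH-LMP2A replicates 2 to 4, and against WT without any 1 LCDD library or WT replicate 2, 3, 4 or 5. The glycolytic enzyme Eno1 was called higher with the pairing (239 against 162 CPM; edgeR adjusted p = 0.0288) and with the tubule covariate (edgeR adjusted p = 0.0219), but not otherwise, and the list's medians were 0.04 and 0.007 (log2). Between DH-LMP2A and WT, 0 genes of these lists were called by edgeR (0 globins, 7 genes of the sialic acid list and 1 of each other list at an unadjusted p under 0.05). Without the number of all genes at that p in this comparison, nothing is read from the 7. DESeq2 called Sod3 higher and B3gnt3 lower in DH-LMP2A.

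Marker levels of stromal cell types, where cytoglobin is best known, were set beside Cygb. The 8 mesangial markers summed to 4310 to 8324 CPM in LCDD, 3088 to 3983 in DH-LMP2A and 3467 to 4291 in WT. All LCDD libraries were thus above the others here too, with a narrow gap to WT (4310 against 4291 CPM). Of these 8, 2 were called higher against DH-LMP2A, Ptn (725 against 341 CPM; edgeR adjusted p = 0.0334) and Serpine2 (1402 against 574 CPM; edgeR adjusted p = 0.0446), and Ptn was called against WT (333 CPM; edgeR adjusted p = 0.0191). At an unadjusted p under 0.05 there were 6 of 8 against DH-LMP2A, beside 2193 of all 16738 genes tested. Against WT there were 4 of 8, for which the number of all genes is not given here. DESeq2 called 5 higher against DH-LMP2A (Itga8, Ptn, Serpine2, Fhl2 and Agtr1a) and 2 against WT (Ptn and Serpine2). Per 1000 CPM of the mesangial sum, Cygb measured 11.4 to 32.3 in LCDD, 3.48 to 5.59 in DH-LMP2A and 1.26 to 2.32 in WT. The mesangial sum averaged 5911 CPM in LCDD, 3379 in DH-LMP2A and 3973 in WT, a smaller difference than that of Cygb. Since Cygb was chosen for its LCDD values, the LCDD separation of this ratio follows from that choice and is a description. The pericyte, smooth muscle and renin cell markers summed to 834 to 1159 CPM in LCDD, 1246 to 1804 in DH-LMP2A and 989 to 1322 in WT. By this sum every LCDD library was below every DH-LMP2A library, and LCDD and WT overlapped. Of these 8, edgeR called 0 in either LCDD comparison (6 at an unadjusted p under 0.05 against DH-LMP2A and 1 against WT), and DESeq2 called Rgs5 and Ren1 lower against DH-LMP2A. Of 9 fibroblast markers, Lum, Dpt and Mfap5 were at the floor, and the sum was 284 to 970 CPM in LCDD, 361 to 711 in DH-LMP2A and 310 to 772 in WT, with all groups overlapping. Among the 6 fibroblast markers tested edgeR called 0 in either LCDD comparison (4 at an unadjusted p under 0.05 against DH-LMP2A and 1 against WT), whereas DESeq2 called 3 against DH-LMP2A, 1 higher and 2 lower (Pdgfra, Col1a1 and Postn). The part of the mesangial level in Cygb and the other members was not tested.

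**Figure D3:**
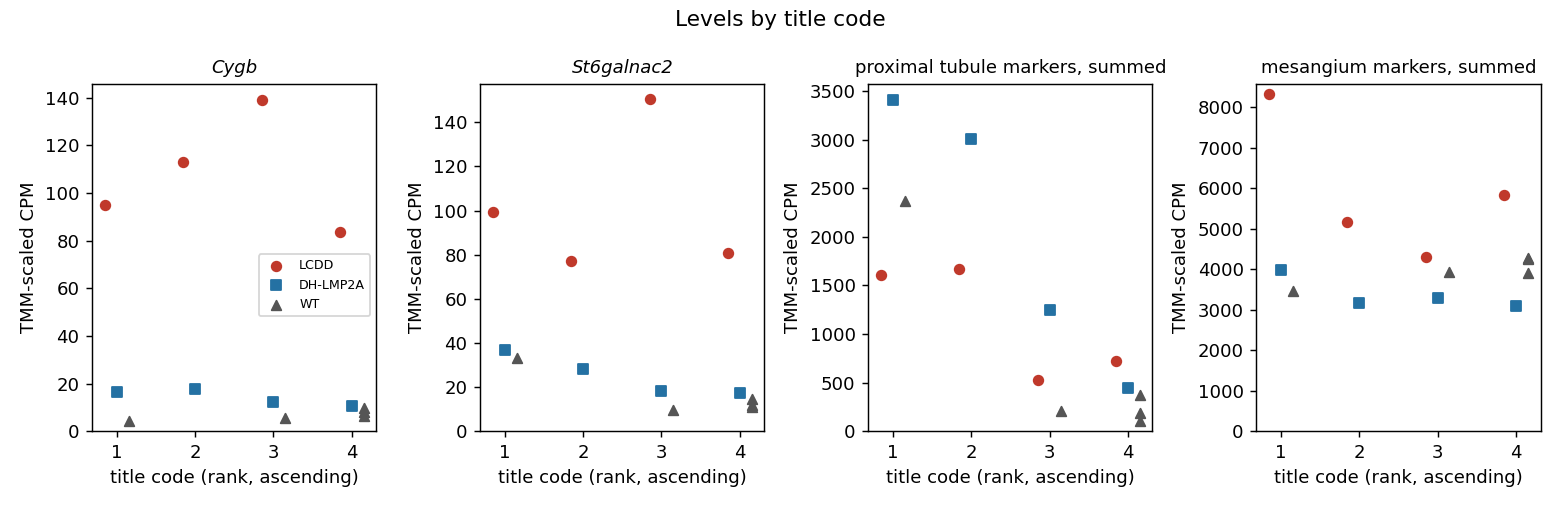
TMM-scaled CPM of Cygb, St6galnac2, summed proximal tubule markers and summed mesangial markers (vertical axes) by rank of the title code (horizontal axes), one point per library, by genotype. LCDD is highest under each code for Cygb and St6galnac2; the tubule sums reach 3411 CPM under code 1 in DH-LMP2A.

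The genes whose log2 CPM was most like that of Cygb over the 13 libraries were sought among 13021 tested genes that averaged 1 CPM or more. Predicted genes, with symbols of Gm plus digits or ending in Rik, had been left out of these, so 1810032O08Rik was not ranked. The 5 with the highest Pearson r were Kntc1 (0.95), Tead2 (0.95), BC018473 (0.93), Zfp473 (0.93) and Mir692-1 (0.93). St6galnac2 followed at rank 17 with an r of 0.90, whereas Jmjd6 had 0.39 and Mxra7 -0.04. For BC018473 they were Mir692-1 (0.99), Ftl2-ps (0.98), Tead2 (0.97), Kif15 (0.97) and Mir692-2 (0.95), with Cygb at rank 11 and St6galnac2 at rank 31 (0.90). These correlations share the difference between LCDD and the other libraries. Once each genotype was centred on its mean, Cygb had an r of 0.14 with BC018473 and 0.05 with St6galnac2, while BC018473 and St6galnac2 had 0.69. Among the genes leading the centred order for Cygb were Ispd (0.83), Snrnp200 (0.81), Bcas3 (0.79) and Ybey (0.79), none of which led the uncentred order. For BC018473 it was led by Cox11 (0.88), Tango2 (0.83), Defb29 (0.81), Ivd (0.80) and Naip5 (0.79), and the 9 libraries with 0 to 3 counts enter those values.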

How the data were processed

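Counts of 13 mouse glomerular mRNA libraries were used as the authors deposited them: raw read counts per gene from featureCounts, per the file headers. The libraries were stranded and read in pairs of 75 bases, per the labels' protocols. Per the submitters' processing notes the tools were STAR 2.4.0a, featureCounts (Subread 1.5.0-p3) and DESeq2 with mm10 (GRCm38); the strand setting and the handling of multi-mapping reads are not given in the sources used here.

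Genes were filtered with filterByExpr by genotype (minimum count 10), which kept 16738, and scaled with TMM. edgeR 4.0.16 (R 4.3.3) quasi-likelihood tests were fitted on all 13 libraries without covariates, with Benjamini-Hochberg adjustment, and checked on simulated counts. SE is the log2 fold change over the square root of F. Log2 CPM used a prior count of 2. Replicates follow the order of deposition, and p-values measure the spread between these libraries, which may be partly technical. Libraries sharing a title code were treated as pairs in LCDD against DH-LMP2A. The 4 correlations of their deviations from the genotype means were 0.59, 0.15, 0.49 and 0.45. Some pairs of unlike codes were about as high. LCDD replicate 2 had 0.52 with DH-LMP2A replicate 1, LCDD replicate 3 had 0.46 with DH-LMP2A replicate 4, and LCDD replicate 4 had 0.42 with DH-LMP2A replicate 3. The other pairs of unlike codes ran from -0.60 to -0.04, so pairing by code is not established. The block was fitted on all 13 libraries, WT included. In the WT comparisons WT replicate 5 had -0.16 with either partner, so those were not treated as paired.

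The members and lists were chosen with earlier results of these data known. Named are all members, window genes that overlap, lie between them or were called, called list genes and the 5 genes most like Cygb and BC018473. Genes called only with the pairing or by DESeq2, and Rhbdf2, Mettl23, Mgat5b and Ngb, were added after their values were seen. Sequences come from GENCODE M21. A sequence and a gene that these rules would give are not reported here. Alternatives were DESeq2 1.42.0, RLE size factors, no filter, a mean of at least 1 CPM, only the genotypes compared, the code block, leaving out each library or the single-mouse WT libraries, and Xist or tubule level as covariate.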

Additional observations from a re-analysis of the deposited data

How the results depend on the processing

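Cygb, St6galnac2 and BC018473 were higher in LCDD under every alternative run, with log2 ranges of 2.77 to 3.03, 1.77 to 2.30 and 7.89 to 9.11 against DH-LMP2A and 3.72 to 4.39, 2.18 to 3.12 and 6.92 to 8.13 against WT. With the title code as replicate block the LCDD values against DH-LMP2A were 2.91 for Cygb, 2.09 for St6galnac2 and 8.23 for BC018473. Numbers of called genes moved far more. LCDD against DH-LMP2A gave 334, and 812 with DESeq2, 1021 with the replicate block, 879 with the tubule covariate, 213 with only the genotypes compared and 113 (without DH-LMP2A replicate 2) to 484 (without DH-LMP2A replicate 1) when 1 library was left out. LCDD against WT gave 308, and 726 with DESeq2, 536 with the block, 54 without the single-mouse WT libraries, 124 with the Xist covariate, 185 with only the genotypes compared and 159 (without WT replicate 4) to 441 (without WT replicate 1) when 1 library was left out. DH-LMP2A against WT gave 105, and 458 with DESeq2, 562 with the block, 69 without the single-mouse WT libraries, 44 with the Xist covariate, 463 with the tubule covariate and 29 (without DH-LMP2A replicate 2) to 407 (without WT replicate 1) when 1 library was left out. The cause was not tested. With the block, which the WT comparisons do not support as a pairing, Jmjd6 was past the threshold in DH-LMP2A against WT (0.53, edgeR adjusted p = 0.0194) and in LCDD against WT (0.43), Trim65 (edgeR adjusted p = 0.0425) and Srsf2 (edgeR adjusted p = 0.0497) in DH-LMP2A against WT, and 1810032O08Rik in LCDD against WT (1.06, edgeR adjusted p = 0.00972). Mxra7 in LCDD against WT lay near 0 and took either sign (-0.16 to 0.059 over the libraries left out). Other changes of sign were these: Mettl23 in LCDD against DH-LMP2A was at -0.061 without LCDD replicate 1 (-0.061 to 0.178 over the libraries left out), 1810032O08Rik at -0.034 in DH-LMP2A against WT without the single-mouse WT libraries, B3gnt3 in LCDD against WT at -0.25 without those and -0.012 without LCDD replicate 2 (-0.012 to 0.53 over the libraries left out), and Egln3 in DH-LMP2A against WT at -0.24 without those. Depth limits St6galnac1, with 9 counts in all.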

Other observations

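Among all tested genes in chromosome order, 124 were called higher in LCDD against both other genotypes. They contained 6 runs of 2 adjacent genes and 0 of 3 or more. Of the 6 runs, 2 lie at this locus, Cygb with Gm11744 and St6galnac2 with BC018473, and 1810032O08Rik, which was not called, is the 1 tested gene between them. The locus was chosen for the LCDD values of Cygb and BC018473, so runs there follow in part from that choice and are given as a description. The rest were Gm3837 with Cenpf, Gm22774 with Gm15590, Ftl2-ps with Mir692-2 and Clec11a with Shank1. Both members of the pair Ftl2-ps and Mir692-2 are also among the 5 genes most like BC018473, and they occupy overlapping positions on chromosome 4.

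Mgat5b, a branching enzyme of O-mannosyl glycans further along chromosome 11, was the window gene with the largest fall in value in LCDD against WT, at -1.64 ± 0.63 (log2, SE; edgeR adjusted p = 0.276). It averaged 15.2 CPM in LCDD, 33.1 in DH-LMP2A and 47.1 in WT, and was not called.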
